A study of Rattus norvegicus with 16 samples.

Results

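Livers of adrenalectomized rats were compared with livers of sham-operated rats after both had breathed ozone. The comparison rests on 8 of the study's 16 libraries: SHAM ozone 17, 18, 19 and 20, and ADREX ozone 81, 82, 83 and 84. Per the labels all rats were male, of the strain written Wistar-Wyoto and 13 weeks old, and both groups received ozone at 0.8 ppm for 4 h. SHAM denotes sham surgery and ADREX a total bilateral adrenalectomy, the removal of both adrenal glands. The labels name no hormone replacement and do not state how long before exposure the surgery took place. The other 8 libraries came from sham-operated and adrenalectomized rats titled as air-exposed. In the treatment label, however, the 4 ADREX libraries titled air also carry ozone. That conflict leaves the ozone comparison untouched, but any value given for ADREX air rests on the titles. The members of the comparison are the 12791 genes, of 22587 in the table, whose mean over all libraries reached 14.7 normalized counts.

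The adrenal cortex makes glucocorticoids, in the rat mainly corticosterone, and mineralocorticoids, while the adrenal medulla releases adrenaline. In hepatocytes corticosterone binds the glucocorticoid receptor, which then moves to the nucleus and acts on genes for amino acid breakdown, glucose output, lipid synthesis and plasma proteins. Adrenaline acts through surface receptors and cyclic AMP. Removal of both glands takes away these hormones together, so the comparison cannot assign a change to any one of them. Inhaled ozone is known as a stimulus that activates the adrenal stress axis.

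Poly(A)-selected RNA of frozen liver was sequenced. The 8 libraries held between 9742436 and 14096246 reads assigned to genes, so that 3 reads in a library corresponded to 3.14 to 4.53 normalized counts. Transcripts of nervous tissue were present at unequal levels. Summed over 25 markers of neurons and oligodendrocytes, the level was 228, 2920, 597 and 76.3 reads per 1000000 (RPM) in SHAM ozone 17 to 20 and 1897, 4651, 802 and 813 RPM in ADREX ozone 81 to 84. SHAM ozone 18 and ADREX ozone 81 and 82 stood highest of all 16 libraries. In bulk tissue, fewer cells of a type and less RNA per cell cannot be told apart. The groups overlapped, and their mean log2 scores differed by 1.89 (exact permutation test, two-sided p = 0.229, where the smallest possible p is 0.0286). Without SHAM ozone 18 the groups no longer overlapped and the difference was 2.82 (exact p = 0.0286). A number of the calls below are therefore also given as they stood without those 3 libraries. That fit does not even out the neural markers. It keeps 228, 597 and 76.3 RPM in SHAM against 802 and 813 RPM in ADREX, which do not overlap. Median log2 changes in it were 1.85 for neuron and 2.03 for oligodendrocyte markers, against 2.06 and 2.03 with all libraries. It also rests on fewer ozone libraries, so a call lost there cannot be assigned to nervous tissue. Hepatocyte markers were abundant in every library, at 143776 to 162759 RPM in SHAM and 113738 to 213066 RPM in ADREX. Nothing in the labels states that the libraries of a group came from separate animals, so p-values measure the spread between these libraries.

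**Figure D1:**
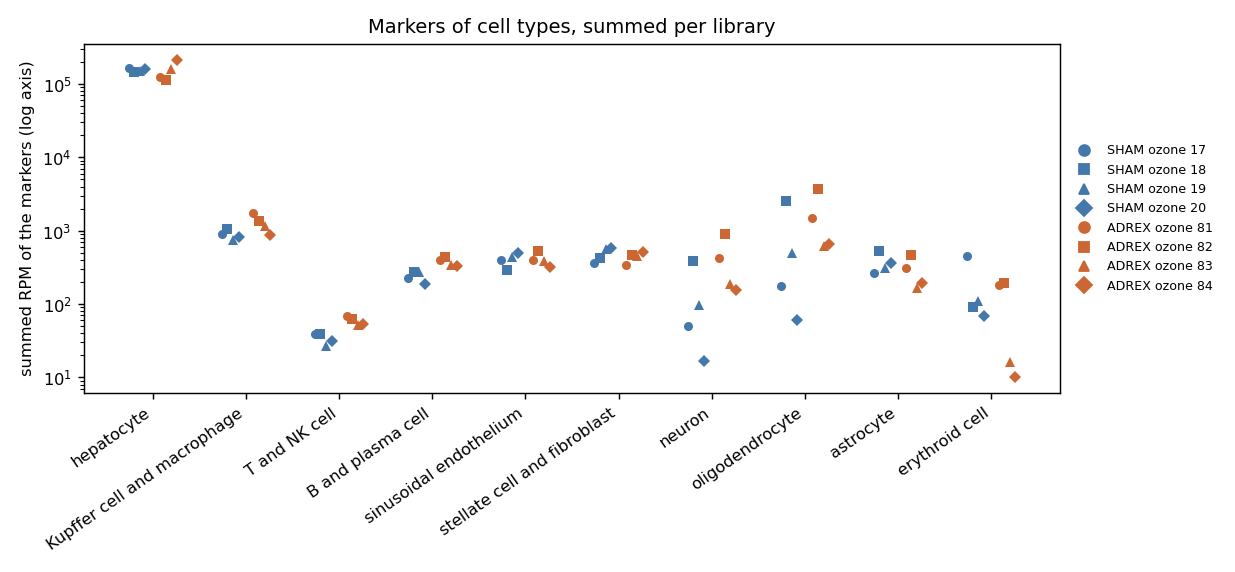
Summed RPM (log axis) of the marker genes of 10 cell types in the 8 ozone libraries, SHAM in blue and ADREX in orange, 1 symbol per library. Neuron and oligodendrocyte markers spread widely within both groups and are highest in SHAM ozone 18 and ADREX ozone 82, whereas T and NK cell markers lie between 26.7 and 39.6 RPM in SHAM and between 52.6 and 69.6 RPM in ADREX.

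Adrenalectomy under ozone changed 1601 of 12791 genes, 12.5% (limma, Benjamini-Hochberg adjusted p under 0.05). At an unadjusted p under 0.05 there were 3986 (31.2%). The rises numbered 772 (6.04%) and the falls 829 (6.48%). At least a 2-fold change was seen in 388 rises and 354 falls, and at least a 4-fold change in 48 rises and 77 falls. The 2 groups of libraries did not overlap for 1428 of the called genes, against 2622 (20.5%) of all genes tested. The median log2 change over all genes was 0.11, and 0.02 after TMM rescaling. Rescaling also moved the balance: 563 rises and 1125 falls with TMM, 579 and 1058 with median-of-ratios factors, and 534 and 1051 with edgeR. Without SHAM ozone 18 and ADREX ozone 81 and 82 there were 479 calls (3.74%), 154 up and 325 down, of which 449 were among the 1601. With the neural score as a covariate 1091 passed (8.53%), 952 of them among the 1601. Single libraries mattered as well, with 787 calls when SHAM ozone 20 was left out, 850 in the absence of SHAM ozone 17 and 993 in that of ADREX ozone 82. Some 379 genes, 117 higher and 262 lower, passed in the main fit and in every one of the 29 alternative fits that tested them. The stricter filter tested only 9194 genes, and a gene absent from a fit was not counted as lost there. Passing in every alternative has this meaning below. The genes described first below come mostly from these 379.

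The largest falls included those of Stac3, Car12, Cyp4a8 and Cdkn1a. Stac3, known as an adaptor of the muscle calcium channel, had normalized counts of 673, 466, 1266 and 1108 in the SHAM libraries and 25.2, 33.5, 0 and 48.9 in the ADREX libraries. All ADREX values lay far below the lowest SHAM value (log2 change −5.81 ± 1.05 SE, adjusted p = 0.00278). Car12, carbonic anhydrase 12, had 947, 374, 976 and 1118 in the SHAM libraries and 14.9, 40.9, 5.49 and 21.6 in the ADREX libraries, a log2 change of −5.48 ± 0.54 (adjusted p = 4.96e-05). Cyp4a8, a fatty acid hydroxylase, fell from 1532, 763, 1330 and 1882 to 86.9, 37.7, 53.8 and 48.9 (−4.57 ± 0.33, adjusted p = 2.84e-06). Its reads may be shared with near-identical Cyp4a genes. Cdkn1a, the cell cycle inhibitor p21, had 2916, 816, 2117 and 3216 in the SHAM libraries and 119, 192, 75.7 and 67.6 in the ADREX libraries (−4.26 ± 0.48, adjusted p = 0.000139). Scd1, the stearoyl-CoA desaturase, had 14430, 8278, 9210 and 30171 in the SHAM libraries and 523, 396, 1116 and 1338 in the ADREX libraries (−4.18 ± 0.64, adjusted p = 0.00101). Edem1, which helps dispose of misfolded glycoproteins from the endoplasmic reticulum, fell from 36676, 22463, 23392 and 35898 to 3973, 782, 1650 and 3103 (−3.85 ± 0.42, adjusted p = 0.000102). Etnppl, which breaks down phosphoethanolamine, fell from 20805, 20085, 19116 and 28341 to 2658, 748, 904 and 1780 (−4.03 ± 0.53, adjusted p = 0.000404). Fam69c, Trim36 and Rtn4rl2 had changes of −4.18, −3.51 and −3.45, and groups did not overlap for any of the 3. Each of these genes passed in every alternative fit. Bhmt, which remethylates homocysteine, had 56140, 65687, 51015 and 82981 in the SHAM libraries and 6888, 3258, 3806 and 11109 in the ADREX libraries, and its change of −3.5 ± 0.79 missed the threshold without the 3 libraries rich in neural markers (adjusted p = 0.114, against 0.00988 with them).

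The largest rises included those of Igfbp2, Serpina7 and the sterol exporter genes Abcg5 and Abcg8. Igfbp2, a binding protein for insulin-like growth factors, had normalized counts of 83, 109, 86 and 59 in the SHAM libraries and 1078, 1754, 3581 and 1005 in the ADREX libraries (4.28 ± 0.63, adjusted p = 0.000772). Serpina7, thyroxine-binding globulin, had 196, 262, 337 and 54.6 in the SHAM libraries and 3144, 2901, 3964 and 2655 in the ADREX libraries (4.15 ± 0.45, adjusted p = 0.000102). Abcg5 and Abcg8 encode the 2 partners of the transporter that moves sterols into bile. Abcg5 had 92.1, 71, 35.9 and 32.4 in the SHAM libraries and 240, 598, 958 and 908 in the ADREX libraries (3.47 ± 0.41, adjusted p = 0.00024). Abcg8 had 96.6, 51.4, 47.9 and 51.6 in the SHAM libraries and 174, 371, 943 and 865 in the ADREX libraries (3.0 ± 0.47, adjusted p = 0.00112). In both genes the lowest ADREX value, in ADREX ozone 81, was above the highest SHAM value, in SHAM ozone 17. Spink1, a trypsin inhibitor known from the pancreas, rose from 24.2, 17.1, 17.4 and 39.8 to 197, 136, 147 and 145 (2.69 ± 0.33, adjusted p = 0.000273). Summed pancreatic acinar markers were 27.5 to 37.8 RPM in SHAM and 40.7 to 113 RPM in ADREX, with Prss1, Cela2a and Ctrb1 at 0 in all 8 libraries. Cela1, the single acinar marker that could be tested, rose too (1.0 ± 0.29, adjusted p = 0.0359, and 0.0876 without the 3 neural-rich libraries), but its call was lost also without 1 of 6 ozone libraries (up to 0.102). The part of these markers in the result was not tested. Osgin1, an oxidative stress-induced gene, rose from 225, 439, 713 and 401 to 2259, 1998, 1224 and 3415 (2.34 ± 0.42, adjusted p = 0.00265). Adam11 rose (2.61 ± 0.37, adjusted p = 0.000667). Like Igfbp2, Serpina7, Abcg5, Abcg8, Spink1 and Osgin1, but unlike Cela1, it passed in every alternative fit. Adcy10 (log2 2.59) and Cux2 (2.58) missed the threshold without the 3 neural-rich libraries (adjusted p = 0.0736 and 0.0775). Lrp8 (2.37, adjusted p = 0.0349), known from neurons, followed the neural score within groups. With the score as a covariate its adjusted p was 0.0902, and its call was also lost without any 1 of several libraries (0.116 without SHAM ozone 20).

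**Figure D2:**
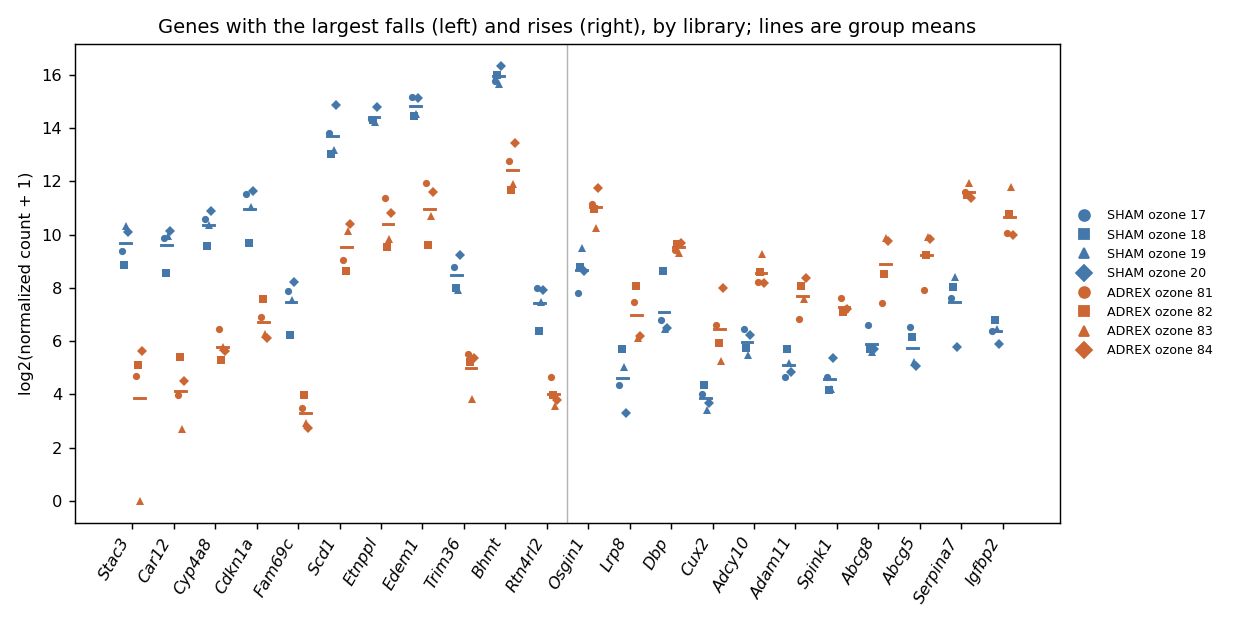
Normalized counts on the scale log2(value + 1) of 11 of the genes with the largest falls and 11 of those with the largest rises, 1 symbol per library, SHAM in blue and ADREX in orange, with group means as lines. The groups do not overlap for any gene shown, which the choice of genes required, and the 0 of Stac3 in ADREX ozone 83 sets the bottom of the scale.

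In normalized counts, which are not per length, the called genes without overlap that lost most included Cps1, Bhmt, Tdo2, Edem1, Slc25a15 and Etnppl. Cps1, the first enzyme of the urea cycle, averaged 155864 ± 7320 normalized counts in SHAM (SD, n = 4) and 73529 ± 4944 in ADREX, a log2 change of −1.09 ± 0.23 (adjusted p = 0.00691). Tdo2, which opens the ring of tryptophan, had 50756, 55794, 39978 and 56827 in the SHAM libraries and 18565, 10303, 9754 and 14018 in the ADREX libraries (−1.99 ± 0.30, adjusted p = 0.000846). Slc25a15, the mitochondrial ornithine carrier, went from 45123 ± 5279 to 19643 ± 7613 (−1.29 ± 0.33), and Uox, urate oxidase, from 39972 ± 7201 to 24091 ± 4650 (−0.74 ± 0.23). Orm1, the acute phase protein orosomucoid, had 26128, 21557, 19213 and 20069 in the SHAM libraries and 10367, 3531, 679 and 1202 in the ADREX libraries. Its ADREX values were widely spread, and the change of −3.21 ± 0.73 passed in every alternative fit (adjusted p = 0.0102). The largest gains by the same rule included those of several secreted proteins. C9, the last component of the complement attack complex, had 27172, 22425, 24145 and 21202 in the SHAM libraries and 72161, 42040, 54693 and 40528 in the ADREX libraries (1.11 ± 0.20, adjusted p = 0.00298). Apoa1, the main protein of HDL, had 19258, 16607, 17896 and 15999 in the SHAM libraries and 40854, 52796, 76450 and 27666 in the ADREX libraries (1.41 ± 0.35, adjusted p = 0.0157). Fgl1, a liver-made fibrinogen-like protein, rose from 9829, 7595, 6153 and 7063 to 27170, 10394, 15400 and 22391 (1.23 ± 0.28, adjusted p = 0.0108). C4bpa, an inhibitor of complement (0.78 ± 0.19, adjusted p = 0.016), the translation factor Eef1a1 (0.86 ± 0.22, 0.0195) and the kininogen gene Kng1l1 (1.51 ± 0.37, 0.016) also rose. Kng1l1 has close copies among which reads could be split. Without the 3 neural-rich libraries the calls of Cps1 (0.0789), Slc25a15, Uox, Apoa1, C4bpa, Eef1a1 and Kng1l1 were lost (adjusted p up to 0.322, for Uox). That of Apoa1 was lost also without ADREX ozone 83 (0.05). Without SHAM ozone 20 the adjusted p was 0.0572 for C4bpa, 0.0585 for Eef1a1, 0.0593 for Kng1l1 and 0.0531 for Slc25a15, which also missed without SHAM ozone 17 (0.0548), SHAM ozone 19 (0.0514) or ADREX ozone 84 (0.052). Uox held in 14 of the 29 alternatives, with adjusted p up to 0.127 without 1 library (ADREX ozone 82).

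Genes known to be induced through the glucocorticoid receptor were lower as a group, but not uniformly. Of 26 tested, 8 fell and 1 rose, which is 34.6% against 12.5% of all genes. Their median log2 change was −0.66, against 0.11 over all genes, and 22 of 26 changes were negative. Fkbp5, a chaperone partner that dampens the receptor, had 2898, 1352, 1735 and 2433 in the SHAM libraries and 481, 348, 179 and 452 in the ADREX libraries (−2.56 ± 0.30, adjusted p = 0.000211). Zbtb16, a transcription factor, had 534, 383, 484 and 506 in the SHAM libraries and 164, 36.7, 21.9 and 153 in the ADREX libraries (−2.79 ± 0.61, adjusted p = 0.00793). Lpin1, a phosphatidate phosphatase that is also a nuclear cofactor, had 2793, 915, 1536 and 2345 in the SHAM libraries and 298, 156, 289 and 364 in the ADREX libraries (−2.71 ± 0.43, adjusted p = 0.00113). The other falls were Cdkn1a and Tdo2, given above, Dusp1 (−1.53 ± 0.44), a phosphatase of MAP kinases, Errfi1 (−1.13 ± 0.36), a feedback inhibitor of the EGF receptor, and Agt (−1.01 ± 0.22), angiotensinogen. Igfbp1, a binding protein for insulin-like growth factors, rose (1.58 ± 0.42, adjusted p = 0.0218), with 1973, 340, 819 and 801 in the SHAM libraries and 2320, 1742, 2386 and 3664 in the ADREX libraries. SHAM ozone 17 lay inside the ADREX range. Several of the best known targets did not pass. Tat, tyrosine aminotransferase, had 21347, 9191, 22011 and 16976 in the SHAM libraries and 6203, 7271, 16628 and 9001 in the ADREX libraries (−0.86 ± 0.33, adjusted p = 0.0931), although it passed without SHAM ozone 18 (0.0299) or ADREX ozone 83 (0.0342). Tsc22d3, which encodes the anti-inflammatory protein GILZ, had 1622, 933, 2593 and 1096 in the SHAM libraries and 1215, 1413, 792 and 553 in the ADREX libraries (−0.63 ± 0.43, adjusted p = 0.332), with overlapping groups. Per1 (−0.32 ± 0.41), Klf9 (−0.89 ± 0.33), Sds (−0.32 ± 0.56) and the gluconeogenic gene Pck1 (0.21 ± 0.29) did not pass either, with an exception for Klf9 without ADREX ozone 84 (0.0423) or ADREX air 67 (0.0463). Cdkn1a, Zbtb16, Lpin1, Fkbp5 and Tdo2 passed in every alternative, including the fit without the 3 neural-rich libraries. The calls of Igfbp1, Dusp1 and Errfi1 were each lost without at least 1 of several libraries, with adjusted p of 0.0505 to 0.147.

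Genes that carry, activate or break down corticosteroids moved in both directions. Of 16 tested, 2 rose and 3 fell (31.25%, against 12.5% of all genes), with a median log2 change of 0.20. Serpina6, corticosteroid-binding globulin, which carries corticosterone in plasma, had 7928, 6656, 9500 and 7243 in the SHAM libraries and 13823, 24686, 23870 and 11469 in the ADREX libraries (1.17 ± 0.28, adjusted p = 0.0144). Every ADREX library was above every SHAM library. Cyp3a2, a steroid hydroxylase, had 4730, 5672, 5771 and 8063 in the SHAM libraries and 18022, 19747, 20774 and 22122 in the ADREX libraries (1.76 ± 0.38, adjusted p = 0.00824). H6pd, which supplies NADPH inside the endoplasmic reticulum for the reactivation of corticosterone, fell (−0.90 ± 0.18, adjusted p = 0.00515). Its partner enzyme Hsd11b1 had 4057, 3308, 3778 and 4615 in the SHAM libraries and 2054, 2455, 2817 and 1572 in the ADREX libraries, just short of the threshold (−0.85 ± 0.27, adjusted p = 0.0521), and it passed in 12 of 29 alternatives, edgeR and DESeq2 among them. Hsd11b2, which inactivates corticosterone and is scarce in liver, fell from 28.7, 45.3, 56.6 and 41.3 to 11.4, 7.33, 0 and 14.4 (−2.76 ± 0.67, adjusted p = 0.0143). The receptor itself, Nr3c1, had 2088, 2061, 2997 and 1731 in the SHAM libraries and 2557, 2567, 4231 and 2311 in the ADREX libraries (0.38 ± 0.21, adjusted p = 0.236). Cyp3a9, another steroid hydroxylase, fell (−1.51 ± 0.41, adjusted p = 0.026). Its call was lost without SHAM ozone 19 or 20 or ADREX ozone 82 or 83 (adjusted p 0.0584 to 0.0842). The rises of Serpina6 and Cyp3a2 and the fall of H6pd were lost without the 3 neural-rich libraries (adjusted p = 0.137, 0.0788 and 0.0661), while that of Hsd11b2 was lost in the fit of the 8 libraries alone (0.0507).

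Amino acid breakdown was lower for part of its enzymes. Of 37 tested, 10 fell and 1 rose (29.7%), with a median of −0.43. Csad, which makes hypotaurine on the way to taurine, had 2754, 2752, 3231 and 3374 in the SHAM libraries and 820, 613, 778 and 557 in the ADREX libraries (−2.14 ± 0.38, adjusted p = 0.00232). Kynu (−1.66 ± 0.39), which acts after Tdo2 in tryptophan breakdown, fell as well. Kmo, the enzyme between those 2 steps, moved the opposite way, with 818, 669, 1028 and 768 in the SHAM libraries and 1642, 2806, 2439 and 1383 in the ADREX libraries (1.29 ± 0.21, adjusted p = 0.00144). Gpt, alanine aminotransferase, fell from 2399, 2219, 2234 and 3026 to 679, 1080, 738 and 987 (−1.52 ± 0.35, adjusted p = 0.0108). Glud1, glutamate dehydrogenase, which frees ammonia, fell (−0.97 ± 0.22, adjusted p = 0.0111). Aass (−1.4), Prodh (−1.13), Cbs (−0.88) and Uroc1 (−0.75) fell too, but each lost its call without at least 1 library (adjusted p 0.0505 to 0.127). Csad, Tdo2 and Kmo passed in every alternative, and they alone of the 11 passed without the 3 neural-rich libraries. Without SHAM ozone 20 the list had 6 calls. In the urea cycle 3 of 8 genes fell and none rose (37.5%, median −0.69). They were Cps1 and Slc25a15, above, and Ass1, argininosuccinate synthase (−1.03 ± 0.30, adjusted p = 0.0356). No urea cycle gene passed without the 3 neural-rich libraries, and the number of falls ranged from 1 to 4 when 1 library was left out, 1 being without SHAM ozone 17. Ass1 also lost its call without SHAM ozone 17 (0.085) or SHAM ozone 20 (0.111), among others. Asl had 5247, 4729, 4423 and 6853 in the SHAM libraries and 5730, 8939, 11358 and 7988 in the ADREX libraries and did not pass (0.66 ± 0.24, adjusted p = 0.0851, and 0.0446 without ADREX ozone 81). Among 12 amino acid transporters 2 fell (16.7%, close to the 12.5% of all genes). They were Slc16a10, a carrier of aromatic amino acids (−1.73 ± 0.31, adjusted p = 0.00249, in every alternative), and Slc7a2, a carrier of arginine and lysine (−1.13 ± 0.29). The latter missed without SHAM ozone 17 or 20 or ADREX ozone 82 (0.0533 to 0.0675).

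Genes of glucose uptake and glycogen were mostly lower where they passed, while the main genes of glucose output did not pass. Of 23 genes of glucose uptake, glycolysis and glycogen, 7 fell and 2 rose (39.1%). Gckr, a regulator of sugar phosphorylation, fell (−1.76 ± 0.45). Ppp1r3c and Ppp1r3b bring protein phosphatase 1 to glycogen and thereby favour its synthesis. Ppp1r3c had 5069, 2538, 5317 and 4426 in the SHAM libraries and 756, 513, 754 and 520 in the ADREX libraries (−2.74 ± 0.35, adjusted p = 0.00039). Ppp1r3b had 3073, 2150, 4718 and 3736 in the SHAM libraries and 1109, 396, 306 and 807 in the ADREX libraries (−2.51 ± 0.45, adjusted p = 0.00244). Gbe1, the glycogen branching enzyme, fell (−1.2 ± 0.17, adjusted p = 0.000646). In contrast Gys2, the liver glycogen synthase, rose from 1863, 1534, 1466 and 1538 to 2686, 5216, 7100 and 2058 (1.25 ± 0.35, adjusted p = 0.0275). Ugp2, which makes UDP-glucose, also rose (1.39 ± 0.39, adjusted p = 0.0296). Pfkfb1 (−2.74 ± 0.71), which sets the level of a signal for glycolysis, and Pklr, pyruvate kinase (−1.56 ± 0.40), fell. Ppp1r3c, Ppp1r3b and Gbe1 passed in every alternative. Gckr, Pfkfb1, Pklr, Gys2 and Ugp2 were each lost without at least 1 of SHAM ozone 17 to 20 and ADREX ozone 82 and 83 (adjusted p 0.0501 to 0.0858), with 4 calls in the list without SHAM ozone 17. Of 14 gluconeogenesis genes 3 fell and none rose (21.4%, against 12.5% of all genes), with a median of −0.04. They were the transcription factor Foxo1 (−1.93 ± 0.36, adjusted p = 0.00332), the malate dehydrogenase Mdh1 (−1.31 ± 0.32, 0.0163) and the glucose-6-phosphate carrier Slc37a4 (−0.97 ± 0.23, 0.0145), of which the last missed without the 3 neural-rich libraries (0.118). Pck1, which catalyses a rate-limiting step, had 37042, 19107, 49279 and 33957 in the SHAM libraries and 40376, 41053, 37075 and 34738 in the ADREX libraries (0.21 ± 0.29, adjusted p = 0.653). G6pc, which releases free glucose, had 14330, 5922, 16096 and 13729 in the SHAM libraries and 4944, 12836, 8383 and 5250 in the ADREX libraries (−0.69 ± 0.54, adjusted p = 0.408). The groups overlapped for both genes.

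Fatty acid and triglyceride synthesis was lower at several successive steps. Of 23 genes tested 11 fell and none rose (47.8%), with a median of −0.84. Acly, which yields cytosolic acetyl-CoA from citrate, had 2663, 2798, 4093 and 1995 in the SHAM libraries and 942, 1239, 737 and 747 in the ADREX libraries (−1.64 ± 0.26, adjusted p = 0.00111). Acaca, acetyl-CoA carboxylase, had 1534, 1324, 1105 and 1374 in the SHAM libraries and 480, 288, 255 and 450 in the ADREX libraries (−1.9 ± 0.27, adjusted p = 0.000621). Fasn, fatty acid synthase, had 1809, 2360, 3300 and 1647 in the SHAM libraries and 478, 680, 251 and 312 in the ADREX libraries (−2.45 ± 0.43, adjusted p = 0.00237). The groups were separate for each of these 3 successive enzymes. Thrsp, a small protein induced with lipogenesis, fell from 7107, 4662, 6465 and 7272 to 1189, 525, 434 and 1130 (−3.08 ± 0.62, adjusted p = 0.00575). Of the enzymes that lengthen fatty acids, Elovl5 fell (−1.06 ± 0.19), and Elovl6 fell from 42.3, 35.5, 44.6 and 23.6 to 0, 3.14, 16.5 and 0, values near the detection floor. On the triglyceride side Gpam (−1.5 ± 0.29), which makes the first acylation, and Dgat2 (−1.0 ± 0.21), which makes the last, fell together with Lpin1. The citrate carrier Slc25a1 fell too (−0.84 ± 0.22). The regulator Srebf1, which encodes SREBP-1, had 3560, 3063, 4432 and 2326 in the SHAM libraries and 2226, 1312, 1988 and 2727 in the ADREX libraries (−0.71 ± 0.33, adjusted p = 0.153). Scd1, Lpin1, Fasn, Acaca, Acly, Gpam, Elovl5 and Dgat2 passed in every alternative. Calls were lost for Elovl6 and Slc25a1 without 1 of SHAM ozone 17, 19 or 20 or ADREX ozone 81, 82 or 84 (adjusted p 0.0533 to 0.062) and for Thrsp without the 3 neural-rich libraries (0.05).

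**Figure D3:**
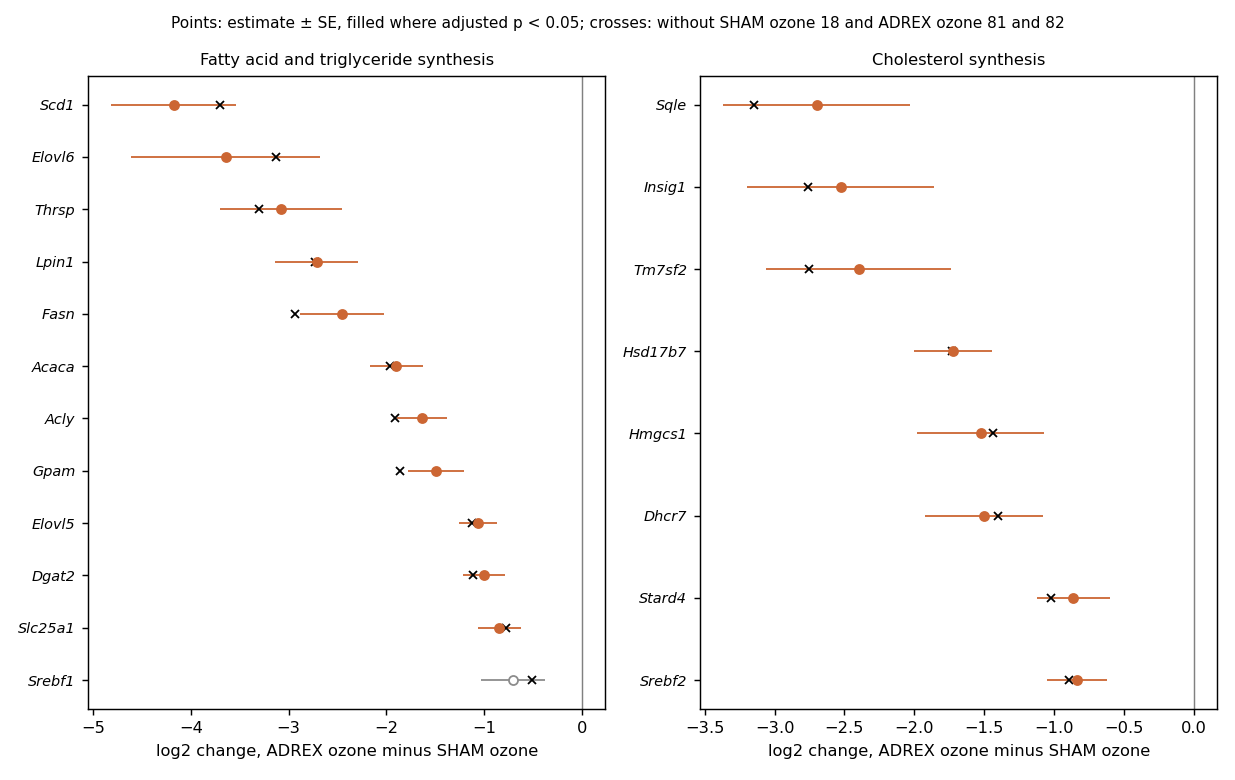
Log2 change (ADREX ozone minus SHAM ozone, ± SE) of the 12 genes of fatty acid and triglyceride synthesis (left) and the 8 of cholesterol synthesis (right) named in the text, filled where the adjusted p is under 0.05; crosses give the change without SHAM ozone 18 and ADREX ozone 81 and 82. Scd1 lies lowest at −4.18, and all genes shown lie left of 0.

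All 25 genes of cholesterol synthesis and its regulation were lower in ADREX, with a median log2 change of −1.14, and 10 of them passed (40.0%). Hsd17b7, an enzyme of the later steps, had 874, 798, 860 and 1041 in the SHAM libraries and 256, 264, 285 and 268 in the ADREX libraries (−1.73 ± 0.28, adjusted p = 0.00134). It passed in every alternative. Sqle, squalene epoxidase (−2.7 ± 0.67), Tm7sf2 (−2.4 ± 0.66), Hmgcs1 (−1.53 ± 0.45) and Dhcr7 (−1.5 ± 0.42) fell as well. Insig1, which holds the sterol sensor in the endoplasmic reticulum, had 11534, 2499, 18101 and 15164 in the SHAM libraries and 1744, 877, 4699 and 996 in the ADREX libraries (−2.53 ± 0.67, adjusted p = 0.0223), with SHAM ozone 18 inside the ADREX range. Srebf2, which encodes SREBP-2, the transcription factor of the pathway, fell from 1659, 1880, 2117 and 1526 to 1089, 1030, 1032 and 856 (−0.84 ± 0.22, adjusted p = 0.0199). Stard4, a cholesterol carrier, fell (−0.86 ± 0.26). Single calls were fragile here. Sqle, Insig1, Tm7sf2, Hmgcs1, Dhcr7, Stard4 and Srebf2 were each lost without at least 1 ozone library (adjusted p 0.0505 to 0.114), and the count ranged from 4 without SHAM ozone 17 to 20 without ADREX air 67. With the neural score as a covariate 4 passed, and without the 3 neural-rich libraries 2 passed, with a median of −1.10.

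SREBP proteins are known to act on these genes together with the factor NF-Y, so the promoter of Srebf2, with a site of each, and that of Hsd17b7, with sites of NF-Y, are shown. RefSeq (build GRCr8) gave a window of 250 bases before the start for 17 of the 25 genes. The CCAAT box (letters CCAAT, either strand), bound by NF-Y, was in 14 of 17 (82.4%), against 35.5% of the 9582 promoters of genes tested and 34.3% of all 27457. The other lists searched also held it more often than that, with 11 of 18 promoters of fatty acid and triglyceride synthesis (61.1%), 8 of 15 of the clock (53.3%) and 11 of 22 of glucocorticoid receptor targets (50%). The sterol response element in the form ATCACCCCA, a site of SREBP, was in 1 of 17, Srebf2 itself, and in 0.0939% of the promoters of genes tested. The list was chosen by function, so the share is a description, and a match is not evidence of binding. In capitals are ATCACCCCA and ATTGG, the reverse complement of CCAAT, in the 250 bases before Srebf2 (chr7:115543057-115543306, plus strand) and before Hsd17b7 (chr13:84722755-84723004, minus strand), 5′ to 3′.
Srebf2: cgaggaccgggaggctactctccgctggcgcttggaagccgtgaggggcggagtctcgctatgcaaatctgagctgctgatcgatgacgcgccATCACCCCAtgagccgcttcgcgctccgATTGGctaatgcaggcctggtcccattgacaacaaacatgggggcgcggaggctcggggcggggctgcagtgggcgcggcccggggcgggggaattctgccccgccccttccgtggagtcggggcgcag
Hsd17b7: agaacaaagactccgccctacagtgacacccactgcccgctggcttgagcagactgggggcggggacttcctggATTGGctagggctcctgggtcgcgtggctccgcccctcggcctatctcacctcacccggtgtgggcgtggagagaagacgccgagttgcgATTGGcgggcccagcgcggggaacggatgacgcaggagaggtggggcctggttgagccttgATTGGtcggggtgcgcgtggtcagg
The Srebf2 window holds both motifs, and that of Hsd17b7, which was lower in every fit, holds the CCAAT box 3 times. The palindromic consensus glucocorticoid response element was in none of the 22 promoters found for glucocorticoid receptor targets, and in 0.00364% of all promoters. Its shorter core ACANNNTGT was in 2 of those 22 (9.09%), Tdo2 and Lcn2, against 3.4% of the promoters of genes tested and 5.62% of all promoters.

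Genes of bile acid synthesis and sterol transport passed in both directions. Of 23 genes 3 rose, namely Abcg5, Abcg8 and Nr1h3, and 3 fell (26.1%), with a median of 0.00. Nr1h3, the oxysterol receptor LXR alpha, had 800, 894, 1025 and 712 in the SHAM libraries and 1585, 2000, 1354 and 1344 in the ADREX libraries (0.87 ± 0.19, adjusted p = 0.00952). The falls were in transporters: Abcb11, the bile salt export pump (−1.04 ± 0.23, adjusted p = 0.00931), Abcc2, which exports conjugates into bile (−1.32 ± 0.31, 0.0118), and Slco1b2, an uptake carrier (−0.89 ± 0.24, 0.0225). Abcb11 went from 16775, 17168, 20320 and 19756 to 10169, 4907, 10289 and 12498, with no overlap. Cyp7a1, the rate-limiting enzyme of bile acid synthesis, had 4576, 727, 4956 and 1832 in the SHAM libraries and 4073, 4643, 8105 and 3522 in the ADREX libraries and did not pass (1.04 ± 0.59, adjusted p = 0.24). Without the 3 neural-rich libraries Abcg5 and Abcg8 still passed. Abcb11, Abcc2 and Nr1h3 did not (0.0686, 0.0803 and 0.138), nor did Slco1b2, which was also lost without SHAM ozone 19 or 20 or ADREX ozone 81 or 83 (0.0506 to 0.0669).

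Genes of fat oxidation and lipid droplets passed in both directions. Of 30 genes 2 rose and 5 fell (23.3%, against 12.5% of all genes), with a median of 0.11, the same as over all genes. Pnpla2, the lipase that opens triglyceride stores, had 2277, 2092, 1143 and 2731 in the SHAM libraries and 819, 509, 909 and 728 in the ADREX libraries (−1.44 ± 0.30, adjusted p = 0.00619). Plin2, the main coat protein of liver lipid droplets, had 2008, 1398, 1163 and 2389 in the SHAM libraries and 337, 455, 452 and 698 in the ADREX libraries (−1.83 ± 0.36, adjusted p = 0.00487). Plin5 (−1.09 ± 0.33), another droplet coat protein, and Cpt2 (−0.79 ± 0.23), of the carnitine shuttle, fell, as did Cyp4a8. Vnn1, a pantetheinase, had 172, 130, 167 and 147 in the SHAM libraries and 360, 811, 545 and 505 in the ADREX libraries (1.79 ± 0.39, adjusted p = 0.00783), and Cyp4a2 rose by 0.76 ± 0.24 (adjusted p = 0.0484) while its relative Cyp4a8 fell. Cpt1a had 15025, 16178, 12338 and 15965 in the SHAM libraries and 11105, 14627, 13731 and 9667 in the ADREX libraries (−0.29 ± 0.24, adjusted p = 0.438). Calls of Plin5, Cpt2 and Cyp4a2 were lost without at least 1 library (0.0553 to 0.128), with 4 calls in the list without SHAM ozone 17 and 11 without ADREX air 67, and Cyp4a8 alone of the 7 passed without the 3 neural-rich libraries.

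Clock genes passed in both directions. Of 18 tested 3 rose and 4 fell (38.9%, against 12.5% of all genes), and of these 7 calls those of Clock and Npas2 were kept without the 3 neural-rich libraries. Arntl, which encodes BMAL1, went from 550, 335, 455 and 678 to 173, 95.3, 113 and 160 (−1.89 ± 0.44, adjusted p = 0.0125). Clock, its partner, went from 1353, 1428, 1436 and 1432 to 812, 601, 653 and 856 (−0.96 ± 0.16, adjusted p = 0.0019). Npas2, which can replace Clock, went from 116, 96.6, 212 and 145 to 36.6, 51.3, 11 and 28.8 (−2.25 ± 0.46, adjusted p = 0.00575). Rora, which drives Arntl, fell (−1.06 ± 0.28). The output factors Dbp and Tef and the repressor Per3 rose. Tef had 544, 675, 488 and 358 in the SHAM libraries and 1409, 1182, 1118 and 1055 in the ADREX libraries (1.23 ± 0.27, adjusted p = 0.00816). Dbp had 109, 399, 87.1 and 88.5 in the SHAM libraries and 693, 803, 637 and 832 in the ADREX libraries (2.44 ± 0.65, adjusted p = 0.0233), and Per3 78.5, 204, 64.2 and 19.2 in the SHAM libraries and 364, 418, 265 and 239 in the ADREX libraries (2.21 ± 0.60, adjusted p = 0.0244). In SHAM, replicate 18 was the highest for all 3. Per2 had 31.7, 103, 71.8 and 31 in the SHAM libraries and 248, 225, 148 and 122 in the ADREX libraries without passing (1.76 ± 0.65, adjusted p = 0.0835, and 0.00491 without ADREX air 67), and the repressors Cry1 (−0.24 ± 0.22), Nr1d1 (−0.47 ± 0.42) and Per1 (−0.32 ± 0.41) did not pass. Clock and Npas2 passed in every alternative. Dbp, Per3 and Rora were lost without 1 of SHAM ozone 17, 19 or 20 or ADREX ozone 81, 82 or 84 (0.0513 to 0.0818), with 4 calls in the list without SHAM ozone 17, and Tef and Arntl without the 3 neural-rich libraries (0.068 and 0.0759). The labels give no time of day, so its part in these values was not tested. The E-box CACGTG, the site of the BMAL1 and CLOCK pair, is in capitals in the 250 bases before Tef (GRCr8, chr7:115206577-115206826, plus strand), shown because Tef is an output gene of that pair.
Tef: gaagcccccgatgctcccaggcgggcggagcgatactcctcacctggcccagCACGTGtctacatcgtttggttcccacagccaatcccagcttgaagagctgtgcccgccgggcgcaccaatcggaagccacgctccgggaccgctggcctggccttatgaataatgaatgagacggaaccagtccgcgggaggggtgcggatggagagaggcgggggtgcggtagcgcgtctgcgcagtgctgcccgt
This hexamer was in 2 of the 15 clock promoters found and in 8.27% of the promoters of genes tested.

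Genes of the growth hormone, IGF and insulin pathways that passed encode ligands, carriers, the insulin receptor and intracellular proteins. Of 28 tested 3 rose and 6 fell (32.1%). Igfbp3, the main IGF carrier of adult plasma, had 587, 553, 1013 and 1046 in the SHAM libraries and 230, 216, 216 and 318 in the ADREX libraries (−1.66 ± 0.25, adjusted p = 0.000846). The carrier Igfbp2, given above, moved the other way. Igf1 fell (−0.70 ± 0.21, adjusted p = 0.0408) and the fetal ligand Igf2 rose from low values (1.71 ± 0.54, adjusted p = 0.0489). Insr, the insulin receptor, went from 2887, 3244, 2948 and 3079 to 1946, 1186, 1630 and 1926 (−0.89 ± 0.16, adjusted p = 0.00259). Pik3r1, a regulatory subunit of PI3 kinase, had 1700, 1089, 1279 and 1518 in the SHAM libraries and 479, 389, 342 and 465 in the ADREX libraries (−1.73 ± 0.19, adjusted p = 0.000102). Of the transcription factors that insulin restrains, Foxo1 fell from 1659, 500, 1383 and 1313 to 364, 178, 274 and 397, and Foxo3 fell (−0.88 ± 0.22). Igfbp2, Foxo1, Pik3r1, Igfbp3 and Insr passed in every alternative. Igf1, Igf2, Igfbp1 and Foxo3 were lost without at least 1 library (adjusted p 0.05 to 0.15), and the list had 5 calls without SHAM ozone 20.

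Of 32 genes of plasma carriers and clotting proteins tested 4 rose and 1 fell (15.6%, close to the 12.5% of all genes). Serpina7, Serpina6, Apoa1 and Apoa5 rose and Agt fell. The calls of Serpina7 and Apoa5 were kept without the 3 neural-rich libraries, and those of Serpina6 and Apoa1 were not (0.137 and 0.128). Apoa5, which regulates plasma triglyceride, had 7515, 5528, 8171 and 8101 in the SHAM libraries and 18074, 9688, 17503 and 22377 in the ADREX libraries (1.16 ± 0.25, adjusted p = 0.00793, in every alternative). Agt, the precursor of angiotensin, had 18852, 16240, 16744 and 22890 in the SHAM libraries and 9713, 7565, 12273 and 7816 in the ADREX libraries (−1.01 ± 0.22, adjusted p = 0.00814, and 0.0829 without the 3 neural-rich libraries). Albumin, Alb, had a change of −0.16 ± 0.42 (adjusted p = 0.828). Of 28 acute phase and cytokine genes 2 rose and 2 fell (14.3%, close to the 12.5% of all genes). Lbp, which presents bacterial lipopolysaccharide, had 2253, 2078, 1619 and 1149 in the SHAM libraries and 11936, 2971, 5127 and 3618 in the ADREX libraries (1.56 ± 0.34, adjusted p = 0.00793). Il1b, an inflammatory cytokine, had 27.2, 68.5, 29.4 and 38.3 in the SHAM libraries and 142, 103, 80.1 and 108 in the ADREX libraries (1.45 ± 0.36, adjusted p = 0.0156, and 0.0548 without SHAM ozone 17). Il6r, the interleukin 6 receptor, fell (−1.17 ± 0.27, adjusted p = 0.0123) along with Orm1. Hamp, which encodes the iron hormone hepcidin, had 163, 2773, 2255 and 2518 in the SHAM libraries and 3302, 7336, 16768 and 18395 in the ADREX libraries and did not pass (2.87 ± 0.96, adjusted p = 0.0597). Without SHAM ozone 18 or ADREX ozone 81 it passed (0.0493 and 0.0485).

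Of 28 P450 genes of families 1 to 3 and their regulators, 3 rose and 5 fell (28.6%), none of which passed without the 3 neural-rich libraries. Cyp2c12, known as the female-type form in rat liver, had 33.2, 62.4, 76.2 and 44.2 in the SHAM libraries and 460, 205, 163 and 197 in the ADREX libraries in these males (2.17 ± 0.47, adjusted p = 0.00828). Its male-type counterpart Cyp2c11 had 29518, 29479, 33080 and 34007 in the SHAM libraries and 21018, 9676, 17673 and 30563 in the ADREX libraries and did not pass (−0.79 ± 0.38, adjusted p = 0.171). Cyp3a62 rose with Cyp3a2 (1.78 ± 0.41). Cyp2d4 (−1.44 ± 0.28), Cyp2b2 (−1.37 ± 0.38) and Cyp3a9 fell. So did Por, the electron donor of these enzymes (−1.01 ± 0.27), and Nr1i2, the xenobiotic receptor PXR (−0.95 ± 0.26). Cyp3a9, Cyp2b2, Por and Nr1i2 were each lost without 1 of SHAM ozone 17, 19 or 20 or ADREX ozone 81 to 83 (0.052 to 0.0923), with 4 calls in the list without SHAM ozone 20. Reads may be shared within the Cyp2b, Cyp2c and Cyp3a families.

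The share called was somewhat below the 12.5% of all genes in 3 stress lists and above it in 2, with 10.7% of unfolded protein genes, 8.33% of NRF2 genes, 8.33% of the p53 list, 20% of metal handling and 23.1% of heat shock genes. Of 28 genes of the unfolded protein and amino acid responses 3 fell, Edem1, the sensor Ern1 (−0.85 ± 0.22) and the sensor Atf6 (−0.61 ± 0.15), with a median of 0.02. The chaperone Hspa5, the usual readout, did not pass (0.07 ± 0.24, adjusted p = 0.875). Without the 3 neural-rich libraries Ern1 (0.0621) and Atf6 (0.0606) did not pass. Both were lost also without SHAM ozone 17 or 20 or ADREX ozone 82 or 83 (0.0509 to 0.0649). Of 24 NRF2 and antioxidant genes Osgin1 and Sod1 rose, the latter by 0.44 ± 0.12 (lost without 1 of 6 ozone libraries, up to 0.0846), while Hmox1, heme oxygenase, did not pass (0.60 ± 0.31, adjusted p = 0.199, and 0.0339 without ADREX air 67). In the p53 and cell cycle list of 24, Cdkn1a fell and Ccnd1, cyclin D1, rose (1.83 ± 0.48, adjusted p = 0.0214, and 0.0751 without SHAM ozone 17 and 0.0649 without ADREX ozone 83). Of 23 genes of cyclic AMP signalling and immediate early response 8.7% were called, below the 12.5% of all genes. Sik1 rose (1.18 ± 0.36) and Klf10 fell (−1.16 ± 0.33), both lost without at least 1 library (0.0503 to 0.122). Interferon genes gave 1 rise and 1 fall of 28 (7.14%), Gbp2 (1.01 ± 0.28) and Ifih1 (−0.68 ± 0.20), both lost without at least 1 of 7 ozone libraries (0.0512 to 0.112). Among 20 genes of metal handling Id1 rose (1.67 ± 0.52) and the zinc and manganese carriers Slc30a1 (−0.80 ± 0.18) and Slc30a10 (−0.80 ± 0.25) and the hepcidin regulator Hfe2 (−0.76 ± 0.21) fell, none of which passed without the 3 neural-rich libraries. Id1, Slc30a10 and Hfe2 were also lost without at least 1 library (0.0513 to 0.129). Metallothionein 1, Mt1, had 17188, 12522, 8681 and 15236 in the SHAM libraries and 19988, 6876, 10999 and 15092 in the ADREX libraries (−0.08 ± 0.46, adjusted p = 0.926). Of 13 heat shock genes Hsp90ab1 rose (0.68 ± 0.19), and the cochaperone Bag3 (−1.11 ± 0.18, adjusted p = 0.00131, in every alternative) and Hspd1 (−0.48 ± 0.15) fell. Hsp90ab1 and Hspd1 were lost without at least 1 library (0.0509 to 0.135).

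Of 71 ribosomal protein genes tested 14 rose and none fell, 19.7% against 12.5% of all genes called and 6.04% called higher. The other 57 did not pass. The median over the 71 was 0.52, with 63 positive changes. Rpl7 (0.75 ± 0.14, adjusted p = 0.00332) and Rpl32 (0.92 ± 0.21, 0.0101) passed in every alternative. After TMM rescaling the median was 0.43 and 10 passed. Leaving out 1 library gave 9 calls, without SHAM ozone 17, to 17, and the fit without the 3 neural-rich libraries gave 3, of which 2, Rpl7 and Rpl32, were among the 14. Processed copies of these genes could share their reads. By contrast none of 72 respiratory chain and ATP synthase genes and none of 37 proteasome genes passed in limma, with medians of 0.01 and 0.04. At an unadjusted p under 0.05 there were 6 and 3 of them. DESeq2 called 1 and 0, and edgeR 0 and 0. Uqcrb, of the respiratory chain, was listed at 0 in 6 of the 8 libraries and at 587 and 641 in ADREX ozone 81 and 82, and is 1 of 41 tested genes with such all-or-none values within a group, none of which was called by limma. Uqcrb is the gene that DESeq2 called (2.7e-07), and in limma its adjusted p was 0.128, or 0.05 without ADREX ozone 84.

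**Figure D4:**
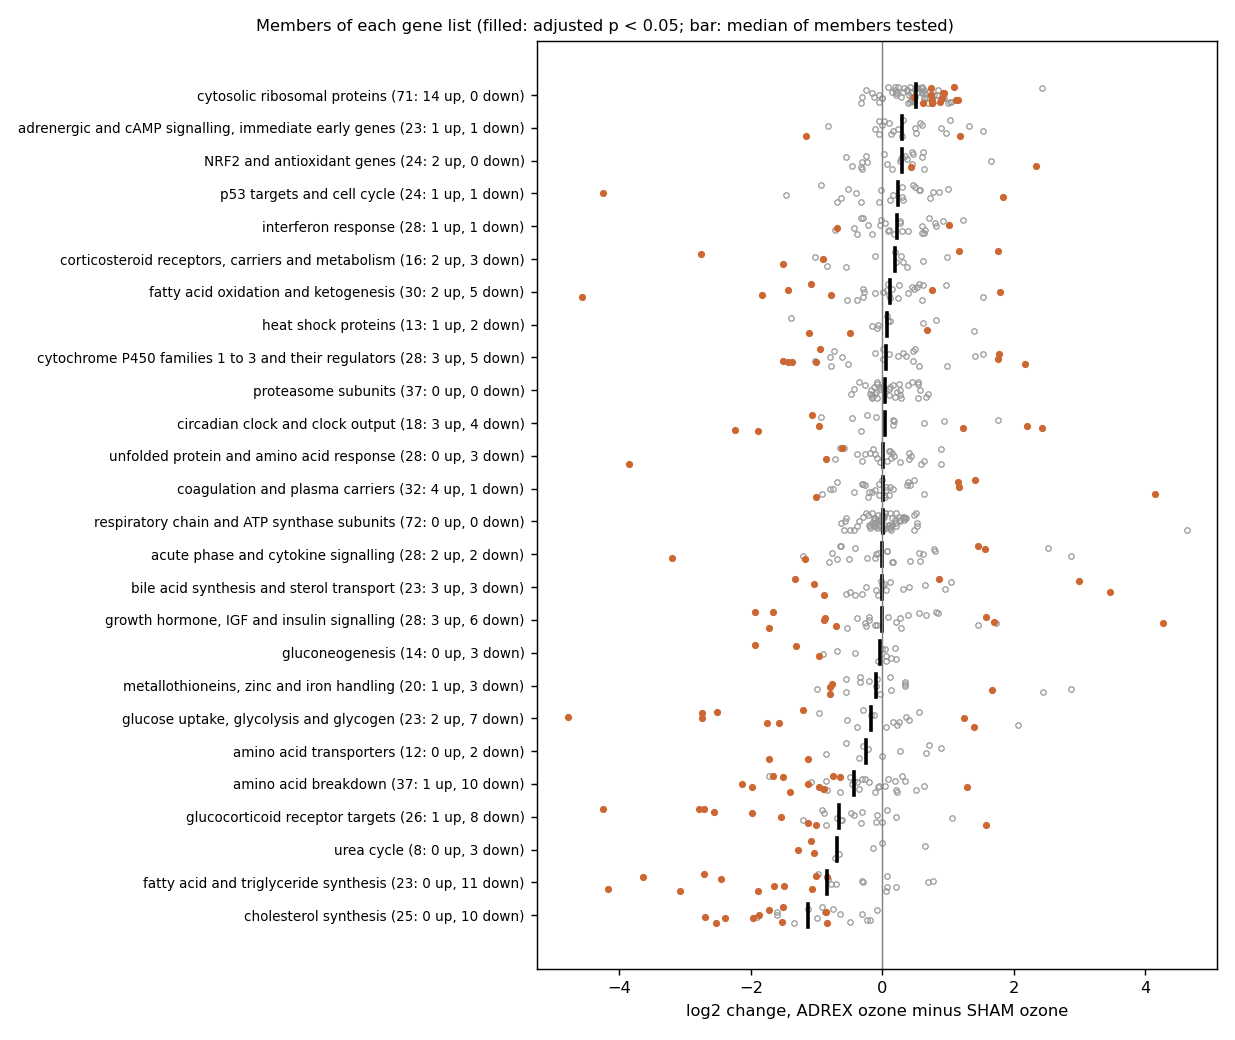
Log2 change (ADREX ozone minus SHAM ozone) of every tested member of 26 gene lists, 1 point per gene, filled where the adjusted p is under 0.05, with the median as a bar and the counts in the labels. The medians of cholesterol (−1.14) and fatty acid synthesis (−0.84) lie lowest and that of ribosomal proteins (0.52) highest.

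Several markers of immune cells were higher in ADREX. Called were 50% of 8 T and NK cell, 30.8% of 13 macrophage and 66.7% of 3 B and plasma cell markers. Over all genes 12.5% were called, 6.04% as higher, and for 20.5% the 2 groups of libraries did not overlap. The summed level of 13 T and NK cell markers was 38.7, 39.6, 26.7 and 31.8 RPM in SHAM and 69.6, 62.0, 52.6 and 53.4 RPM in ADREX, without overlap. Of the 8 tested, 4 rose: Cd8a, the coreceptor of cytotoxic T cells (1.27 ± 0.28, adjusted p = 0.00793), the granule proteins Gzma (1.55 ± 0.44) and Prf1 (1.0 ± 0.31), and Nkg7 (1.0 ± 0.30). Cd8a had 16.6, 18.3, 15.2 and 10.3 in the SHAM libraries and 45.7, 38.8, 29.6 and 36 in the ADREX libraries. Of 13 macrophage markers 4 rose, the complement gene C1qa (1.04 ± 0.16, adjusted p = 0.00103, in every alternative), the Kupffer cell receptor Clec4f (0.78 ± 0.21), the lysozyme gene Lyz2 (1.07 ± 0.27) and C1qb (0.74 ± 0.23). Changes were positive for 10 of the 13 and negative for 3. Their median log2 change was 0.31, and −0.01 without the 3 neural-rich libraries. The 14 macrophage markers in the table summed to 757 to 1045 RPM in SHAM and 879 to 1767 RPM in ADREX, with overlap. C1qa had 612, 625, 515 and 628 in the SHAM libraries and 1640, 1161, 1037 and 1123 in the ADREX libraries. In the B and plasma cell list, of which 3 of 8 markers were tested, Jchain (0.86 ± 0.27) and Cd74 (0.58 ± 0.18) rose. Cd74 is not specific to B cells. Summed markers of that list were 189 to 272 RPM in SHAM and 326 to 435 RPM in ADREX. All of these calls but that of C1qa were lost without the 3 neural-rich libraries. Those of Gzma, Nkg7, Prf1, Lyz2, Clec4f, C1qb, Jchain and Cd74 were lost also without at least 1 library (0.0501 to 0.135). Without SHAM ozone 20, 1 T and NK cell marker and 1 macrophage marker passed. With TMM, median-of-ratios factors, edgeR or the neural covariate, each gave 2 T and NK cell, 3 macrophage and 0 B and plasma cell calls. DESeq2 gave 4, 5 and 3. Of 3 neutrophil markers tested 0 passed. The neutrophil sums overlapped, at 4.17 to 6.74 RPM in SHAM and 5.48 to 10.6 RPM in ADREX. None of 11 tested markers of sinusoidal endothelium passed in limma or edgeR, 1 had an unadjusted p under 0.05, and DESeq2 called 1. None of 13 neuron or 10 oligodendrocyte markers passed, although their median log2 changes were 2.06 and 2.03, with both groups spread widely. At an unadjusted p under 0.05 there were 6 and 2 of them, and edgeR and DESeq2 called 0. Summed hemoglobin and other erythroid markers were 68.6 to 457 RPM in SHAM and 10.1 to 191 RPM in ADREX, and none of the 3 tested passed in limma, edgeR or DESeq2 (2 at an unadjusted p under 0.05). Of the adipocyte, muscle and adrenal markers, Adipoq, Lep and Plin1, Ckm and Myl1, and Mc2r and Pnmt had no read in any of the 8 libraries, while others were present at low levels. The 7 adipocyte markers summed to 1.93 to 3.28 RPM in SHAM and 3.81 to 9.64 RPM in ADREX, without overlap, and the 1 tested, Cfd, did not pass (1.37 ± 0.45, adjusted p = 0.0566). The 9 adrenal markers in the table summed to 1.19 to 8.62 RPM and 3.69 to 22.0 RPM, and the 1 tested, Chga, did not pass (2.09 ± 1.08, adjusted p = 0.197). The 8 muscle markers summed to 0.0993 to 2.11 RPM and 1.04 to 5.33 RPM. The part of these cells in the results was not tested.

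Most changes seen under ozone had the same sign in the air libraries, which share no library with the ozone comparison. In air 451 genes passed (3.53%), 191 higher (1.49%) and 260 lower (2.03%) in ADREX, and 2579 (20.2%) had an unadjusted p under 0.05. Of the 1601 genes called under ozone 1337 (83.5%) had the same sign in air. The same share was not computed over all genes tested, so the 83.5% has no background to be read against. Some 239 were called in both, 237 of them in the same direction, which is 14.8% of the calls under ozone and 52.5% of those in air. The other two were Por and Spsb4. In air the changes of the leading genes were 4.6 ± 0.63 for Igfbp2, 3.54 ± 0.45 for Serpina7, 3.19 ± 0.41 for Abcg5, −6.88 ± 1.05 for Stac3, −3.87 ± 0.54 for Car12 and −4.57 ± 0.64 for Scd1. Cdkn1a changed by −1.18 ± 0.48 in air and did not pass there (adjusted p = 0.187), but neither did its difference from ozone (−3.08 ± 0.68, adjusted p = 0.0989).

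The difference between the effect of adrenalectomy under ozone and in air was tested directly and passed for 14 of 12791 genes (0.109%), 11 more negative (0.086%) and 3 more positive (0.0235%) under ozone. In 13 of them the change under ozone itself passed. Epb4.1, a protein that ties the membrane to the cytoskeleton, had 1990, 1589, 1853 and 2388 in the SHAM libraries and 772, 687, 569 and 564 in the ADREX libraries. In air it had 568, 567, 693 and 795 in SHAM and 1424, 1446, 658 and 1145 in ADREX, so that the change under ozone was −1.59 ± 0.22, that in air 0.78 ± 0.22 and their difference −2.37 ± 0.32 (adjusted p = 0.00707). Bach2, a transcriptional repressor, had 131, 108, 119 and 134 in the SHAM libraries and 29.7, 18.9, 21.9 and 27.3 in the ADREX libraries. In air it had 26.8, 14.4, 25 and 14 in SHAM and 42.4, 44.5, 20.8 and 26.9 in ADREX (difference −3.01 ± 0.42, adjusted p = 0.00871). Spsb4, a substrate receptor of ubiquitin ligases, had 827, 202, 304 and 400 in the SHAM libraries and 216, 120, 160 and 66.2 in the ADREX libraries. Its air values were 31.3, 36, 48.8 and 34.1 in SHAM and 232, 176, 201 and 231 in ADREX (difference −4.0 ± 0.53, adjusted p = 0.00707). For all 3 the SHAM ozone libraries held the highest values of the 4 groups on average, and the difference passed without any 1 of the 16 libraries (adjusted p up to 0.0294, 0.0431 and 0.0292). Slc12a3, the thiazide-sensitive sodium chloride carrier known from kidney, had 356, 236, 190 and 301 in the SHAM libraries and 21.7, 57.6, 18.6 and 18.7 in the ADREX libraries. In air it had 11.9, 8.41, 7.5 and 6.02 in SHAM and 44.7, 24.4, 5.96 and 24.5 in ADREX (difference −4.51 ± 0.69, adjusted p = 0.0193, up to 0.0759 without 1 of 5 libraries: SHAM ozone 17 or 20, ADREX ozone 83 or 84 or ADREX air 66). Lats1, a kinase of the Hippo pathway, Cdk19, a kinase of the Mediator complex, Prox1, a hepatocyte transcription factor, Dag1, dystroglycan, and Dcaf13 fell under ozone, with log2 changes of −0.93, −1.14, −1.2, −0.98 and −1.61 and changes in air of 0.18, 0.27, 0.21, 0.04 and 0.51. Slc16a10 and Por differed by −2.57 ± 0.43 and −2.17 ± 0.39. Mettl6, and Ift20 of the cilium transport machinery, rose under ozone (0.62 ± 0.14 and 0.76 ± 0.13) with negative changes in air (−0.44 ± 0.14 and −0.29 ± 0.13). Tmem159, the remaining gene, had a difference of 1.78 ± 0.33. The differences of these 10 genes were each lost without 8 to 14 of the 16 libraries in turn, with adjusted p up to 0.162 (Mettl6), and leaving out 1 library gave between 3 and 33 calls. Without the 3 neural-rich libraries the differences of Dag1 (0.0861), Ift20 (0.103), Mettl6 (0.103), Por (0.118), Prox1 (0.103), Slc16a10 (0.0506) and Tmem159 (0.103) did not pass either, and those of the other 7 did. With TMM, median-of-ratios factors or edgeR the differences of Mettl6 and Ift20 did not pass (adjusted p 0.0546 to 0.0639). With no filter on the mean, those of Ift20, Mettl6, Por and Tmem159 did not pass (0.0502 to 0.0831). Gabarapl1 (0.69 ± 0.15), an autophagy protein, Rassf6 (1.3 ± 0.19) and Cytip (0.73 ± 0.23) rose under ozone and come next among the rises, with differences that did not pass (adjusted p = 0.074, 0.087 and 0.0989).

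**Figure D5:**
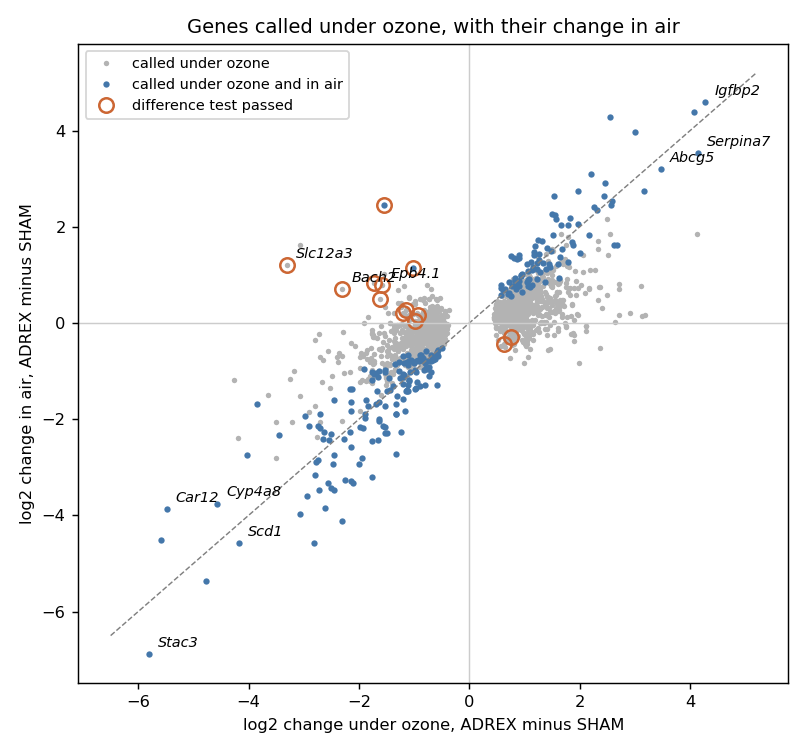
Log2 change under ozone (x axis) and in air (y axis), ADREX minus SHAM, of the 1601 genes called under ozone, in blue where also called in air and ringed where the difference passed. Most points lie in the lower left or upper right quadrant, and Slc12a3, Bach2 and Epb4.1 lie in the upper left, with a fall under ozone and a positive value in air.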

How the data were processed

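Poly(A)-selected RNA of rat liver was sequenced on a NextSeq 500, per the labels' protocols. The submitters' processing notes name Partek, DESeq2 and the build rn6. Aligner, counter and versions: not given in the sources used here. As deposited, the values are a signal per gene that matches read counts scaled by 1 factor per column. When each column's step was divided out, 100% of the values came out as whole reads within 0.01. How that factor was computed is not shown by this. Median-of-ratios factors from the recovered reads gave a median log2 change under ozone of 0.03, against 0.11 with the deposited values. Since such a signal is not a raw count, the main test was limma 3.58.1 (R 4.3.3) on log2(value + 1), with 4 group means over all 16 libraries (Benjamini-Hochberg adjustment over 12791 genes, threshold 0.05). A fold change on this scale understates the change of low genes. Genes with a mean under 14.7 were left out. Depth was 8372891 to 14096246 reads per library. On the recovered reads edgeR 4.0.16 called 1585 genes and DESeq2 1.42.0 called 2193.

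Genes named are, among called genes without overlap, with a symbol and a mean of at least 73.4 in the higher group, the 12 largest rises and 12 largest falls, the 8 per direction with the largest difference of means, the 5 per direction with the smallest p for the difference from air, and list members. Some of these genes are not reported here. Further genes among the 14 whose difference from air passed were named after their values were seen. The genes compared and the gene lists were chosen with earlier results of these data known. Alternatives were other pseudocounts, filters, scalings, fits and tools, each library left out, a neural marker score as covariate, and the fit without the 3 libraries richest in those markers. The fit was tested on simulated data. Promoter sequences are from RefSeq (GRCr8), with 11666 of the tested genes matched by symbol or synonym and 9582 with a promoter.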

Additional observations from a re-analysis of the deposited data

Results flagged for a closer look

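In 6 of 96 groups of 4 ozone libraries examined for the genes chosen by size, 1 library stood far from the other three, which chance alone gives in about 1 group in 20. The values were 96.6 for Abcg8 in SHAM ozone 17, 399 for Dbp in SHAM ozone 18, 50771 for Uox in SHAM ozone 19, 279471 for Kng1l1 in ADREX ozone 81, 57.6 for Slc12a3 in ADREX ozone 82 and 331 for Mettl6 in ADREX ozone 84. The effect of adrenalectomy differed between ozone and air, by the direct test of the difference in limma, for Slc12a3 (−4.51 on the log2 scale), Bach2 (−3.01), Epb4.1 (−2.37), Cdk19 (−1.41), Lats1 (−1.11), Mettl6 (1.06) and Ift20 (1.05). Only genes chosen by size or by a small p for the difference are listed. Others of the 14 that passed, such as Spsb4 (−4.0), are given above. With TMM, median-of-ratios factors or edgeR the differences of Mettl6 and Ift20 did not pass (adjusted p 0.0546 to 0.0639).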

How the results depend on the processing

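The count of genes called under ozone stayed within 1.5 times 1601 except with array quality weights (3414), without the 3 libraries richest in neural markers (479), and among the fits that left out 1 library, which gave 787 to 1848. DESeq2 gave 2193. For ADREX air against SHAM air, with 451 calls, the count was 212 in its 8 libraries alone, 1456 with array weights, 195 with the covariate of neural markers, 835 with DESeq2, and 194 to 1004 without 1 library. For the difference between ozone and air, with 14 calls, it was 182 with array weights, 22 with the covariate, 24 with edgeR, 248 with DESeq2, and 3 to 33 without 1 library. The cause was not tested. With array weights 58.8% of the calls under ozone were rises, and with TMM, median-of-ratios factors and edgeR 33.4%, 35.4% and 33.7%, against 48.2%. The difference in neural score was 1.07 to 2.82 without 1 library, 2.82 being without SHAM ozone 18. Of 180 genes named, limma called 155. Of these 58 passed in every alternative and 97 were lost in at least 1, none with a change of sign. Of the other 25, 9 passed in at least 1 alternative. The pseudocounts, filters, TMM and median-of-ratios scaling and robust moderation left the count of calls under ozone within 1.5 times.

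No paired analysis was possible because the groups share no replicate number. With 4 libraries per group, at 3.14 to 4.53 normalized counts per 3 reads, changes in genes near the floor, such as Elovl6 in ADREX, are imprecise.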
